A study of Mus musculus with 8 samples.

Results

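Isolated genic H3K79me2 peaks of 1 to 5 kb are short stretches of dimethylated histone H3 lysine 79 that lie in a protein-coding gene with no other peak near them. They were chosen from the control peak list of cultured mouse spermatogonial stem cells by measured position and width. A peak was taken when it lay on chromosomes 1 to 19, was 1000 to 5000 bp wide, overlapped a protein-coding gene span of the RefSeq table for GRCm38 and had no other control peak within 10000 bp on either side. The rule found 1200 peaks, of 46767 autosomal control peaks and 47774 control peaks in all. Their width, spacing and control enrichment come from the data that selected them and are given as a description, whereas the EPZ5676 list, gene positions, gene identity and promoter sequence played no part in the choice beyond the overlap with a gene.

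The series holds 8 samples in 4 groups of 2, H3K79me2 chromatin immunoprecipitation and input chromatin from control and from EPZ5676 cultures, with an Abcam antibody labelled as H3K79me2. All cells came from testes of mice aged 7 days, of the strain B6.129S7-Gt(ROSA)26Sor/J with its LacZ reporter, and had been expanded for 2 months on SNL 76/7 feeder cells without serum, with GDNF at 10 ng/mL and FGF2 at 0.5 ng/mL. Treated cultures then received 2 µM EPZ5676, an inhibitor of the methyltransferase DOT1L, and control cultures received vehicle, for 7 days before fixation in 1% formaldehyde for 10 min. That vehicle is DMSO in the protocols but EtOH in the descriptions of the control samples, and no step that parted germ cells from feeder cells is named. Each condition has 1 peak list, recorded under replicate 1, so that no value has a replicate error, no test between conditions was possible and the read depth is unknown here.

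DOT1L places the H3K79 methyl marks and travels with elongating RNA polymerase II through its partner proteins. H3K79me2 is therefore known as a mark of transcribed genes that is densest in the first part of the gene body, just behind the promoter, and that can spread over long stretches of long genes. Loss of the mark under a DOT1L inhibitor depends on turnover and dilution of old histones as well as on the enzyme.

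The genes under these peaks had a median length of 15704 bp, against 25238 bp for all autosomal genes with a control peak, and the promoters of 7 of them are shown because the later results return to them. Rpl11 (a protein of the large cytosolic ribosomal subunit, chr4:136053344-136053643, minus strand), Mrpl9 (a mitochondrial ribosomal protein, chr3:94443086-94443385, plus strand), Slc25a39 (a mitochondrial carrier, chr11:102407468-102407767, minus strand) and Zscan26 (a zinc finger protein with a SCAN domain, chr13:21453678-21453977, minus strand) had the peak of highest control fold in the 4 gene lists with the most such peaks, the mitochondrial ribosomal list being tied at 13 with that of the RNA polymerases, general factors and Mediator and taken because it comes first in the order of the lists. Ssb (the La RNA-binding protein, chr2:69861312-69861611, plus strand) had the highest fold of all 1200, and Prss23 (a serine protease, chr7:89517376-89517675, minus strand) and Cav1 (caveolin-1, chr6:17307390-17307689, plus strand) had the longest EPZ5676 coverage. These last 3 were chosen after their values were seen. The sequences are RefSeq's for GRCm38.p6, 250 bases before to 50 bases after the gene start, 5′ to 3′ on the gene's strand, with each CpG dinucleotide in capitals.
Rpl11: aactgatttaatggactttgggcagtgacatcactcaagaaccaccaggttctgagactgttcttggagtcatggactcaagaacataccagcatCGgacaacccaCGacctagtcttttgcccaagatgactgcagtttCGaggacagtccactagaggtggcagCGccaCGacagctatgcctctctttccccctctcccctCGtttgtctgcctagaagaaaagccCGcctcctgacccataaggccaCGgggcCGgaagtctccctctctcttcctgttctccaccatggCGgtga
Mrpl9: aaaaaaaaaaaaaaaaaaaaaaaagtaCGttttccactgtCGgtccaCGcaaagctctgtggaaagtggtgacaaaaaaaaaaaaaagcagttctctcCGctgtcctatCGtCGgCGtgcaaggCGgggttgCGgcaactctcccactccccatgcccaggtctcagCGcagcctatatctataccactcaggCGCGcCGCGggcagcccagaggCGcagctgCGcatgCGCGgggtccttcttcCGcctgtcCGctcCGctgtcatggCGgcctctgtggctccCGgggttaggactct
Slc25a39: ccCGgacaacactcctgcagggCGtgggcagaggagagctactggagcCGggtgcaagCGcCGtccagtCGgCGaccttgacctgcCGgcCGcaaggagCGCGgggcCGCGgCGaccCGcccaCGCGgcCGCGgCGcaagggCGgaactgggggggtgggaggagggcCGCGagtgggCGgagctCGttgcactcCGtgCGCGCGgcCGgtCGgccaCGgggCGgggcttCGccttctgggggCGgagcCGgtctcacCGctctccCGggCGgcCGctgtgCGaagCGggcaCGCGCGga
Zscan26: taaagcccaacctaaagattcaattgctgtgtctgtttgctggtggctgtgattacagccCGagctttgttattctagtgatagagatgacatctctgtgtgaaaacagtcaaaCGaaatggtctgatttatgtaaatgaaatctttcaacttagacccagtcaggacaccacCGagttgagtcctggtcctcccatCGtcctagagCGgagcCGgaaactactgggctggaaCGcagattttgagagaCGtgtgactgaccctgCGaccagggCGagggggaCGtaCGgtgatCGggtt
Ssb: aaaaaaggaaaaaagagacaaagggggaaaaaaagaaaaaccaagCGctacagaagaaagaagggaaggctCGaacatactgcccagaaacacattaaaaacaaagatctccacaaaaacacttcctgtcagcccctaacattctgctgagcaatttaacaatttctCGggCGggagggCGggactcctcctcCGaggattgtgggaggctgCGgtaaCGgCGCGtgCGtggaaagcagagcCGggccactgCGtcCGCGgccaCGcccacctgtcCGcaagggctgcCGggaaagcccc
Prss23: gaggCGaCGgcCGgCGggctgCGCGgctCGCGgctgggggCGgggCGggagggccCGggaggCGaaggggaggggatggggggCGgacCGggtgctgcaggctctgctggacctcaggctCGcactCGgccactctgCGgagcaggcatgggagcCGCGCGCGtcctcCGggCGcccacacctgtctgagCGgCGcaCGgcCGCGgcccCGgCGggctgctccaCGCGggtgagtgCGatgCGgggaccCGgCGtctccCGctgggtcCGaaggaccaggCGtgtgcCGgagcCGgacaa
Cav1: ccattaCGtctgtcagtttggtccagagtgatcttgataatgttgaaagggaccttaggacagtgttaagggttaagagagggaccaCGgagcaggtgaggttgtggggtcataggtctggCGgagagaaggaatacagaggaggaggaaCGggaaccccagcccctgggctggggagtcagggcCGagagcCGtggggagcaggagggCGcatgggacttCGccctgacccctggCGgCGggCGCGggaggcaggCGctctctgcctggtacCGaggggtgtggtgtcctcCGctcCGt

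None of these 7 windows was itself inside the peak of its gene: the peak began 51 bp after the start in Rpl11, 72 bp in Mrpl9, 167 bp in Zscan26, 224 bp in Slc25a39 and 312 bp in Ssb, and 1423 and 2876 bp downstream of the nearest listed start in Prss23 and Cav1. The number of CpG dinucleotides ran from 10 in Rpl11 and 13 in Zscan26, through 16 in Cav1, 18 in Ssb and 23 in Mrpl9, to 41 in Prss23 and 45 in Slc25a39. The sparsest and the densest of the 7 thus both belonged to genes marked within 250 bp of their start.

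The peaks themselves were modest in control cells. Their median width was 2304 bp (quartiles 1587 and 3305 bp) and their median fold enrichment over background, the authors' value per peak, was 2.72 (quartiles 2.34 and 3.29, range 1.56 to 6.79). The median −log10 q, also the authors', was 4.01 and ranged from 1.19 to 31.0. Together they covered 3020 kb, or 1.81% of the control-covered length on the autosomes. The distance to the next control peak had a median of 23769 bp and exceeded 100 kb for 122 peaks (10.2%). The most remote was in Cntn6, a neural contactin gene, 2063271 bp from any other control peak and with a fold of 2.37.

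Wider peaks had the higher folds. The median fold was 2.38 for the 481 peaks narrower than 2000 bp, 2.81 for the 330 of 2000 to 3000 bp, 3.13 for the 236 of 3000 to 4000 bp and 3.45 for the 153 above that. Ssb led with a fold of 6.79 over 4532 bp (chr2:69861874-69866405), followed by Usp1, a deubiquitinase of DNA repair (6.76), and Ormdl3, a regulator of sphingolipid synthesis (6.63). Next came Pa2g4, a proliferation-associated protein (6.12), Cbll1, a ubiquitin ligase (6.06), and Ncln, nicalin of the endoplasmic reticulum (6.01). Ccdc86 (5.96), Sod1, the cytosolic superoxide dismutase (5.84), and the splicing genes Lsm4 (5.81) and Snrpb (5.79) completed the first 10, and the same 10 had the highest −log10 q. All 10 were over 3000 bp wide and each was the only control peak of its gene.

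**Figure D1:**
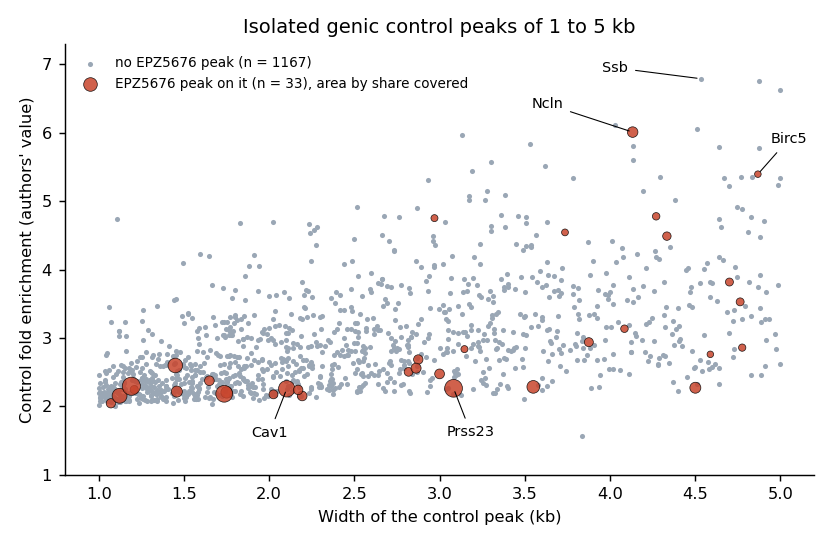
Width of each of the 1200 isolated genic control peaks (x axis, kb) against its control fold enrichment (y axis, the authors' value), with the 33 that carry an EPZ5676 peak as red circles whose area grows with the share of the peak covered. The large circles, Prss23 and Cav1 among them, lie at low control folds (2.26 for both), while the strongly enriched Ncln and Birc5 are covered over 24.3 and 3.29% of their peaks.

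At the edges of the rule, the peaks just inside and just outside had folds of 2.19 to 5.34. Wscd1 and Taldo1 (transaldolase) were 5000 bp wide, and Lta4h (5041 bp) and Inppl1 (5050 bp) fell outside. Tdh (1000 bp) and Wdr41, the next in width, were inside, and Rnf224 (997 bp) and Yipf1 (996 bp) outside. The closest spacing inside was 10021 bp, between Rpl21 and Rasl11a, which are each other's neighbours, and Wdr54 (9998 bp) and the peak over Exosc6 and Gm38523 (9997 bp) were left out. None of these 12 peaks had EPZ5676 coverage, and only 2.75% of all 1200 isolated peaks did.

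Isolated genic peaks mostly lay within 1000 bp of a gene start, and few covered one. A start was listed for 16457 of 20665 autosomal protein-coding genes (79.6%), which placed 971 of the 1200 peaks. Of these, 699 (72.0%, exact 95% interval 69.0 to 74.8%) lay within 1000 bp of a start, and 70 (7.21%) covered one. Among genic peaks of the same widths that had a control peak within 10000 bp, 2463 of 11180 (22.0%) lay within 1000 bp of a start and 2.84% covered one, and 4.25% of all placed autosomal control peaks did. The share was 9.31% for isolated genic peaks under 1 kb and 94.1% for those over 5 and up to 20 kb. All intervals given are exact Clopper-Pearson intervals that cover the sampling of peaks only. Distance to other peaks helped choose the set, and peaks inside long marked genes have neighbours, so these shares describe the sets and were not tested.

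Orientation could be read for the 938 placed peaks that overlap 1 gene, measured from its most upstream listed start. Of these, 890 (94.9%) lay wholly downstream of the start, 38 (4.05%) covered it and 10 lay wholly upstream. Overlap with the gene span was required, so peaks wholly upstream of a gene were left out beforehand, here and in the non-isolated set. Non-isolated peaks of the same widths were much alike in this, with 94.6% wholly downstream and 1.41% over the start, but only 16.9% of them began within 1000 bp downstream, against 64.6% of the isolated ones. The 606 that began within 1000 bp downstream began at a median of 331.5 bp (quartiles 192 and 520 bp) and ended at a median of 2954.5 bp (quartiles 2295 and 3861 bp). Where the peak covered the start, its downstream arm was the longer in 38 of 38 cases, with a median of 2740 bp downstream and 336 bp upstream. In genes with 1 listed start the count was the same, 38 of 784 (4.85%).

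**Figure D2:**
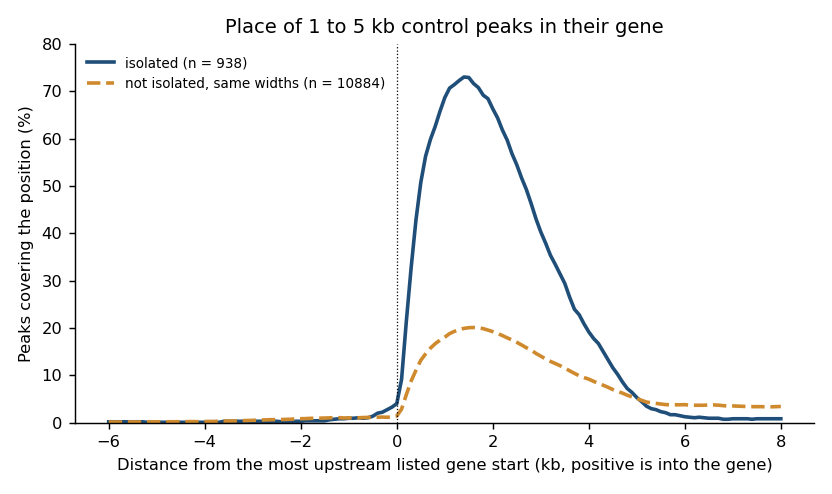
Share of peaks that cover each position (y axis, %) by distance from the most upstream listed start of their gene (x axis, kb, positive into the gene), for 938 isolated peaks and 10884 non-isolated peaks of the same widths. Isolated peaks rise from 4.05% at the start to 73.0% at 1400 bp downstream, whereas non-isolated peaks reach 20.1% at 1600 bp. Peaks wholly outside the gene span are in neither set.

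The profile across the start was steep, in part because peaks wholly upstream of the gene span could not enter the set. At 1000 bp upstream 0.960% of the 938 peaks were present, at 1000 bp downstream 68.7%, at 2000 bp 66.3% and at 3000 bp 40.3%. Peaks near a start were also the wider and stronger ones: the 699 within 1000 bp of a start had a median width of 2616 bp and a median fold of 2.96. The 113 at 1 to 10 kb from a start had 1809 bp and 2.37, and the 159 farther away had 1546 bp and 2.23. With the 1200 peaks split by control fold into 4 classes of 300, from weakest to strongest, 33.1, 67.5, 90.1 and 97.1% of placed peaks lay within 1000 bp of a start.

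Those 159 distant peaks lay inside long genes that carried other control peaks in 88.7% of cases, against 8.30% of the start-proximal ones. The median length of their genes was 105383 bp, against 12245 bp for start-proximal peaks. Examples, taken from the longest genes with a peak, were Dab1, a reelin-pathway adaptor (1125345 bp long, 36 control peaks, fold 2.35 at the isolated one), Rbms3, an RNA-binding protein gene (24 control peaks, fold 2.21), and Robo1, a guidance receptor gene (57 control peaks, fold 2.11). Macrod2, the longest gene with an isolated peak (1997664 bp), differed from them: its isolated peak began 1477 bp from a listed start, with 1 other control peak in the gene. In Prkg1, the next longest, the isolated peak of fold 4.70 lay over Cstf2t, a short cleavage factor gene inside the Prkg1 span, 375 bp from a listed start. A peak over overlapping spans cannot be assigned to one of them, which concerned 38 of the 1200 peaks. Peaks at 9 and at 6 overlapping genes both lay in the Ugt1a cluster of glucuronosyltransferases on chromosome 1.

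By gene, 1228 genes had an isolated peak, 5.94% of the 20665 autosomal protein-coding genes. A control peak of any kind lay in 11203 genes (54.2%), and 11.0% of these had an isolated peak. For 982 of the 1228 it was the only control peak of the gene. These 982 genes were short, with a median of 11898 bp against 25238 bp for all control-marked genes, and the peak covered a median of 21.3% of the span. By the spacing limit, a gene of up to 10 kb with an isolated peak can hold no other control peak. In another 237 genes, with a median length of 98598 bp, other control peaks lay in the same span. Only 22 genes held more than 1 isolated peak, among them Angel1, Armc10, Cdc42bpg, Clmp and Exoc4 with 2 each.

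With peak width held to 1 to 5 kb by the rule, the share of the gene under the peak necessarily fell with gene length. Among peaks over 1 gene, the median share of the gene covered was 64.4% in genes up to 5 kb, 34.5% at 5 to 10 kb, 18.6% at 10 to 20 kb, 8.54% at 20 to 50 kb and 1.62% above 50 kb. The peak was the only one of its gene in 100, 100, 96.5, 76.4 and 26.1% of these. The rule fixed the 100% values, as a gene of up to 10 kb has no room for another peak over 10000 bp away. Some peaks ran past the end of their gene, 41 of the 938 oriented ones (4.37%), in genes with a median length of 2519 bp. The shortest genes were Sf3b5, a splicing factor subunit (734 bp long under a peak of 1857 bp), Rpl10l, a retroposed ribosomal protein gene (1023 bp, peak 1577 bp), Rprml (1072 bp, peak 1549 bp), Ccnq, a cyclin (1224 bp, peak 1864 bp), and Rplp1, of the ribosomal stalk (1228 bp, peak 1120 bp). Reads from a retroposed copy such as Rpl10l may not be separable from its parent gene, so that peak is uncertain.

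Genes around isolated peaks were marked in the control somewhat more often than all genes. Within 100 kb on either side lay a median of 4 other protein-coding genes (quartiles 2 and 7), against 2 (0 and 4) for non-isolated peaks of the same widths. Of these neighbours 63.3% had a control peak, against 70.9% for non-isolated peaks and 54.2% of all autosomal protein-coding genes. A gene near several peaks was counted once for each of them. No marked neighbour was found for 15.9% of isolated peaks and for 35.1% of the others.

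Cytosolic ribosomal protein genes often carried a single isolated peak. Of 72 such genes all had a control peak and 19 (26.4%) had an isolated one, against 5.94% of all genes. It was the only control peak in all 19, but also in 982 of all 1228 genes with an isolated peak. The same held for all 158 isolated peaks over 1 gene of up to 5 kb. By the spacing limit, a gene of up to 10 kb with an isolated peak can hold no other. Of the 19, Rpl11 had the highest fold (4.77, 86.9% of its span), then Rps19 (4.64), Rpl31 (4.42) and Rpl5 (4.19), and Rps12 the lowest (2.79). The median fold of the 19 was 3.57, against 2.73 over all 1228 genes, and the median share of the span was 66.5%, against 15.5%. The median length of the 72 genes was 3179 bp, against 17491 bp for all genes. Peak width was limited by the rule, so the share of the span is larger in shorter genes. None of the 19 had an EPZ5676 peak, where 2.75% of all 1200 isolated peaks and 0 of the 158 over 1 gene of up to 5 kb had one. The count depended on the limits of the rule: 7 ribosomal protein genes had such a peak with the spacing limit doubled, 11 at widths of 2000 to 5000 bp and 27 when control peaks under the lowest −log10 p of the EPZ5676 peaks were removed first. Under these limits the list no longer had the largest share, with 7 of 47 proteasome genes, 8 of 40 DNA replication genes and 16 of 40 DNA replication genes in the same order.

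Isolated peaks were also found over genes of other housekeeping machinery. Of 47 proteasome genes, 45 had a control peak and 11 an isolated one (23.4%), led by Psme3, an activator subunit (5.52), and the regulatory subunit Psmd2 (5.31), while Psmd14, a deubiquitinase of the lid, had a weak peak far inside the gene (2.16). Of 58 spliceosome genes, 57 were marked and 9 had an isolated peak, with Prpf19 (5.78) and Prpf8 (5.15) behind Lsm4 and Snrpb. Of 78 mitochondrial ribosomal protein genes, 77 were marked and 13 had an isolated peak, from Mrpl9 (3.78) and Mrpl17 (3.69) to Mrpl39 (2.47). Of 78 genes of the respiratory chain and ATP synthase, 73 were marked and 10 had an isolated peak, led by Uqcrfs1, the Rieske iron-sulphur protein of complex III (5.44), and Cox7a2, of cytochrome oxidase (4.54). In mitochondrial import, Timm29 (4.56) and Timm10 (3.75) were the 2 of 23. Counted over marked genes only, the shares in the order given were 24.4, 15.8, 16.9, 13.7 and 9.09%, against 11.0% of all marked genes. Isolated peaks in these groups were in most cases the only ones of their gene: in 10 of 11, 9 of 9, 12 of 13, 9 of 10 and 2 of 2. Over all genes with an isolated peak this held for 982 of 1228. For peaks over 1 gene it held for 100% up to 5 kb, 100% at 5 to 10 kb and 96.5% at 10 to 20 kb. The 100% values were fixed by the spacing limit of the rule. Median gene lengths of these lists were 7228 to 12293 bp, against 17491 bp for all genes. The counts were not compared with those of other genes of like length.

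In transcription and translation, counts differed between lists. Of 99 genes of the RNA polymerases, general factors and Mediator, 98 were marked and 13 had an isolated peak, with Polr2e, a shared polymerase subunit (5.23), and Med10 (5.09) at the top. Of 53 translation initiation factor genes, 49 were marked and 9 had an isolated peak, led by Eif2ak1, a kinase that phosphorylates eIF2 and was included by its name (5.33), and Eif3f (5.01). Of 36 aminoacyl-tRNA synthetases, 35 were marked and 6 had one, with Tars first (4.63). Counted over marked genes only, the shares in the order given were 13.3, 18.4 and 17.1%, against 11.0% of all marked genes. Chaperones, with 5 of 82 (6.10%), stood near the 5.94% of all genes and were led by Hspa13 (3.32). The 30 genes of DOT1L and elongation complexes were also near it with 2 (6.67%), Supt4a of the DSIF elongation factor (3.92) and Rtf1 of the PAF complex (2.41), the latter 42152 bp from its start. Counted over control-marked genes only, chaperones (7.94%) and this list (6.90%) were below the 11.0% of all marked genes.

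In DNA replication and repair, 8 of 40 replication genes and 6 of 30 genes of the Fanconi pathway and recombination had an isolated peak. Both shares were 20%, against 5.94% of all genes, and every gene of both lists had a control peak. Rpa2, of the single-strand binding complex (4.91), Mcm6, of the replicative helicase (4.63), and the clamp loader subunit Rfc2 (4.55) led the first list, and Nbn (3.86) and Palb2 (3.67) the second. Among 31 cell cycle genes the 4 (12.9%) were Bub1 (4.29), Ccna2 (3.44), Ccnb2 (2.86) and Ccne1 (2.49). Ccng1 (2.59) was the only one of 22 genes (4.55%) in the list for p53 signalling and cell death. Counted over marked genes only, the shares were 20% for replication and for repair, 13.3% for cell cycle and 4.76% for p53 signalling and cell death. The share over all marked genes was 11.0%. None of these 19 peaks had EPZ5676 coverage, and only 2.75% of all 1200 isolated peaks did.

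**Figure D3:**
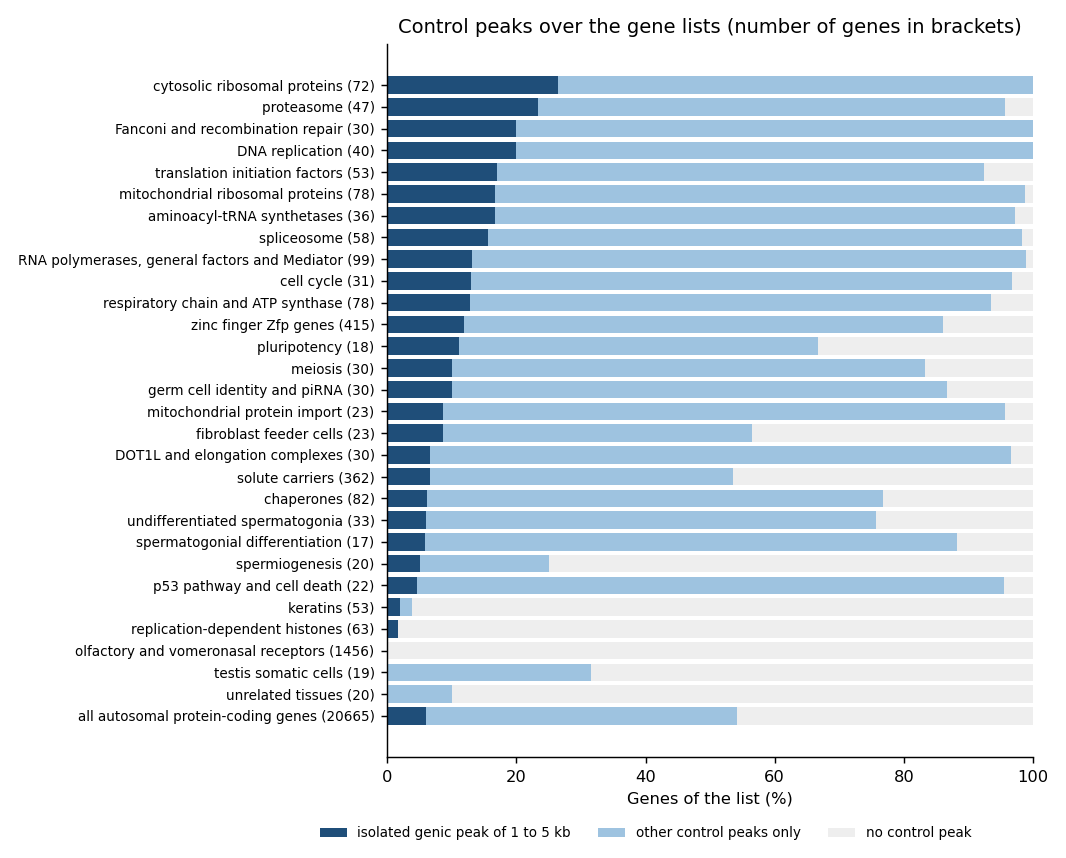
Share of the genes of each list (x axis, %) with an isolated genic control peak of 1 to 5 kb (dark), with other control peaks only (light blue) and with no control peak (grey), number of genes in brackets. Under the rule as given, cytosolic ribosomal proteins (26.4%) and proteasome genes (23.4%) have the largest dark shares, an order that other spacing, width and p-value limits change, and all autosomal protein-coding genes stand at 5.94%.

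Germline lists gave 1 to 3 genes each, and the shares for undifferentiated (6.06%) and differentiating (5.88%) spermatogonia were near the 5.94% of all genes. Counted over control-marked genes only, these 2 lists were below the 11.0% of all marked genes. Undifferentiated spermatogonial genes gave 2 of 33, Epcam, a surface adhesion molecule (4.01), and Taf4b, a germ-cell TFIID subunit (2.21), the latter with 13 control peaks in the gene. Germ cell identity and piRNA genes gave 3 of 30: Tex101, a surface protein of germ cells (4.22), Prmt5, an arginine methyltransferase (3.61), and Tex19.1, which acts in retrotransposon control (3.46, covering 100% of its span). Meiosis genes gave 3 of 30: the recombinase Dmc1 (3.13), the axis protein Hormad1 (2.51) and Mei1 (2.04). Single genes came from spermatogonial differentiation (Crabp2, a retinoic acid binding protein, 2.22, of 17) and spermiogenesis (Odf2, 3.32, of 20), and pluripotency gave Dppa4 (2.67) and Tfcp2l1 (2.30) of 18. Any control peak was found in 25 of 33, 26 of 30, 25 of 30, 15 of 17, 5 of 20 and 12 of 18 genes of these lists, in the order given.

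Lists of other cell types gave 2 genes in all. Of 23 fibroblast feeder genes, 13 had a control peak and 2 an isolated one (8.70%), Pdgfra, a growth factor receptor (2.22), and Col6a1, a collagen chain (2.21), both with folds under the median of the set. Testis somatic and unrelated-tissue lists gave none of 19 and 20, and 6 and 2 of those genes had any control peak. Among large multigene families, 49 of 415 zinc finger genes (11.8%) had an isolated peak, led by Zscan26 (4.03), Zscan25 (3.73) and Zfp287 (3.67), and 24 of 362 solute carriers (6.63%) did, led by Slc25a39 (4.51) and the phosphate carrier Slc25a3 (3.84). Counted over control-marked genes only, the shares were 15.4% for feeder genes, 13.7% for zinc finger genes and 12.4% for solute carriers, against 11.0% of all marked genes. Of 63 replication-dependent histone genes only H2bc4 was marked, by an isolated peak of fold 2.30, and among 53 keratins Krt10 had one (2.21). None of 1456 olfactory and vomeronasal receptor genes had a control peak.

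Few isolated peaks met a peak of the EPZ5676 list. EPZ5676 peaks overlapped 33 of the 1200 by at least 1 bp, or 2.75% (1.90 to 3.84%), where 6.62% of all autosomal control peaks had one. Non-isolated genic peaks of the same widths stood at 4.99% (4.63 to 5.36%, 691 of 13856). Isolated genic peaks under 1 kb stood at 3.22% (2.39 to 4.25%) and those over 5 and up to 20 kb at 16.7% (13.9 to 19.8%). Of isolated 1 to 5 kb peaks outside genes, 2 of 150 did (1.33%, 0.162 to 4.73%). By covered length, 0.665% of the bases under isolated peaks lay under an EPZ5676 peak, against 1.74% of all autosomal control-covered bases and 1.41% in the non-isolated peaks.

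The lower share than in non-isolated peaks depended on the p-value floor of the control list. The control list reaches down to a −log10 p of 2.36, and the EPZ5676 list to 4.03. With control peaks under the EPZ5676 floor removed before isolation was judged, 2199 peaks met the rule and 3.77% of them had an EPZ5676 peak (3.02 to 4.66%), and non-isolated peaks also stood at 3.77% (3.23 to 4.36%, 173 of 4594). Widening the search around the 1200 peaks added little, with 35 within 1000 bp and 43 (3.58%) within 10000 bp of an EPZ5676 peak. With 1 list per condition, fewer marked cells and less mark per cell cannot be told apart.

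**Figure D4:**
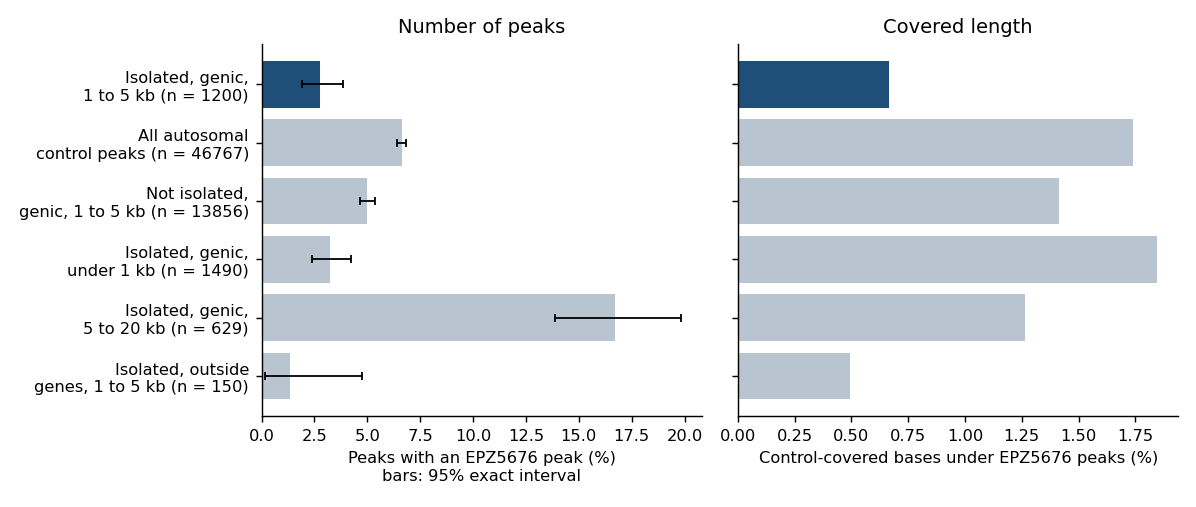
Left, share of peaks with an EPZ5676 peak over at least 1 bp (x axis, %, bars are exact 95% intervals over peaks) for isolated genic peaks of 1 to 5 kb and 5 other sets of control peaks; right, share of control-covered bases under EPZ5676 peaks (%). The 2.75% of isolated peaks is below the 4.99% of non-isolated peaks of the same widths and the 16.7% of isolated peaks over 5 and up to 20 kb, all before the lists are held to 1 p-value floor.

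Within the set, the overlap was lowest in short genes. No EPZ5676 peak lay on the 158 peaks of genes up to 5 kb, and the share was 1.75, 2.11, 4.26 and 4.27% in the longer classes of gene given above. It was 4.67% (2.57 to 7.71%) in the 300 peaks of lowest control fold and 2.00, 1.67 and 2.67% in the next 3 classes of 300. By width it was 1.87% under 2000 bp, 2.42 and 2.54% in the next classes and 6.54% (3.18 to 11.7%) above 4000 bp, and room for an overlap grows with width. Peaks 1 to 10 kb from a start had 7.08% (8 of 113), against 2.15% (15 of 699) near a start and 1.89% (3 of 159) farther away. Each of these classes holds at most 15 overlaps, and no test was made between them.

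Coverage of the 33 was mostly partial. Each carried 1 EPZ5676 peak, with an EPZ5676 fold of 2.36 to 3.11 and a −log10 q of 1.21 to 2.70, and the median covered length was 450 bp or 17.0% of the control peak. Only 6 were covered over more than 50% of their length, and all 6 had a control fold at or under the median of the 1200 peaks. They were Anxa3, a calcium-dependent membrane-binding protein (90.8%), Prss23 (86.6%), Arsj, an arylsulphatase (76.7%), Cav1 (72.9%), Plxdc2, a membrane protein (57.8%), and Pgm2, a phosphoglucomutase (55.3%). For the 20 such peaks of low control fold the median covered share was 24.0%, and for the 13 of higher fold it was 7.26%, with a largest value of 24.3% at Ncln. The share also depends on peak width. These 13 peaks were 2970 to 4868 bp wide, and the 6 were 1122 to 2103 bp wide except Prss23 (3082 bp). In covered length the medians were 553 bp for the 20 and 304 bp for the 13.

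Prss23 shows the fuller form. Its control peak (chr7:89512921-89516002) had a fold of 2.26 and a −log10 q of 1.97, and its EPZ5676 peak of 2670 bp had 2.94 and 1.88. At Cav1, the gene of the coat protein of caveolae, a control peak of 2103 bp (fold 2.26) held 1533 bp of EPZ5676 coverage (fold 2.99), and 3 other control peaks lay in the gene. Longer coverage was also found at Muc6, a secreted mucin gene (1410 bp, 39.7% of the peak), and Pon2, a paraoxonase gene (1215 bp, 27.0%). The fold of each list is relative to its own background, so a higher EPZ5676 fold at a site does not show more mark there.

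At strongly marked sites less than 25% of the peak was covered. At Ncln a control peak of 4133 bp (fold 6.01) held 1006 bp of EPZ5676 coverage (fold 3.11), more than the median of the 33. Birc5, the survivin gene (control fold 5.40), had 160 bp or 3.29% of its peak. Kif20b, a mitotic kinesin (4.78), Ercc2, the XPD helicase of TFIIH (4.75), Med6 of Mediator (4.54), Acad9, a mitochondrial dehydrogenase (4.49), and Ticrr, a replication initiation factor (3.82), had 151 to 515 bp, at most 11.9% of the peak. Of the gene lists above, the only EPZ5676-covered peaks were those of Med6, Mrps31 (304 bp) and Zfp87 (450 bp). The other members of these lists, Rpl11, Mrpl9, Slc25a39 and Zscan26 among them, had none.

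Counted over whole gene spans, 105 of the 1228 genes with an isolated peak (8.55%) had an EPZ5676 peak anywhere in the gene, where 19.9% of all control-marked genes did. The share was 3.46% in the 982 genes with no other control peak and 30.0% in the 237 genes with others, which are the longer ones. Among markers of the cell types in the culture, 4 of 15 fibroblast feeder markers had an EPZ5676 peak (8872 bp in sum), against 2 of 16 for undifferentiated spermatogonia (2330 bp) and 0 of 11 for germ cells. In the control list 9 of the 15 feeder markers, 15 of the 16 and 11 of the 11 had a peak, and Vim, Col1a2 and Col3a1 were among the feeder markers without one. Of 12 testis somatic markers 4 had a control peak and 1 an EPZ5676 peak (179 bp). Their part in the EPZ5676 overlaps of isolated peaks was not tested.

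The promoters next to isolated peaks were CpG-rich. Over the 699 peaks within 1000 bp of a start, the 300 bases around the nearest start had a median GC content of 59.7%, a median of 19 CpG and a median observed over expected CpG ratio of 0.763. At starts next to control peaks wider than 5 kb (3978) the ratio was 0.836 with 25 CpG, at genes with no control peak (7408) 0.232 with 4 CpG, and over all 16457 listed genes 0.597 with 14 CpG. A window with a ratio over 0.6 and GC over 50% was found at 73.7% of start-proximal isolated peaks, 80.9% of the wide ones, 15.3% of unmarked genes and 47.0% of all. At the 158 starts nearest to isolated peaks over 10000 bp from every listed start, the ratio was 0.736 with 20.5 CpG. Such a window was found at 62.0% of them, so CpG-rich promoters were not limited to genes with the peak at the start. For sets of peaks the start nearest the peak was taken, and for sets of genes the most upstream listed start. Of the 7 promoters printed, Rpl11 had the lowest ratio, 0.471, and Slc25a39 the highest, 1.02.

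**Figure D5:**
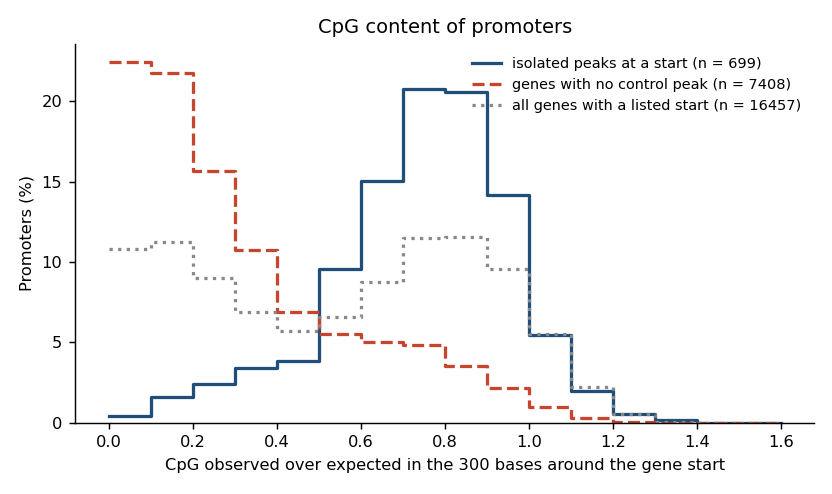
Distribution of the observed over expected CpG ratio (x axis) in the 300 bases around the gene start, as a share of promoters (y axis, %), for 699 isolated peaks within 1000 bp of a start, 7408 genes with no control peak and all 16457 genes with a listed start. The median is 0.763 next to isolated peaks, 0.232 at genes with no control peak and 0.597 over all.

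Short motifs were searched as exact letters on both strands of the same 300 bases, and none of the strings contains another. The ETS string CCGGAAG was present at 26.9% of start-proximal isolated peaks, 18.9% of starts next to peaks wider than 5 kb, 3.05% of genes with no control peak and 12.3% of all. The NRF1 core TGCGCA stood at 17.2, 16.6, 3.52 and 10.1% in the same order, the E-box CACGTG at 12.4, 11.0, 4.27 and 7.97%, and the cAMP response element TGACGTCA at 4.29, 3.29, 1.15 and 2.40%. The GC box GGGCGG was found at 62.2, 71.8, 23.2 and 47.3%, and the YY1 string AAGATGGC at 4.58, 5.71, 1.17 and 3.21%. The TATA box TATAAA was the rarer next to peaks (6.15, 5.73, 22.6 and 13.5%), and CCAAT was about even (40.9, 37.1, 39.0 and 39.1%). CpG-holding strings are more frequent where CpG is dense, and a match is a description of letters and not of binding. In the printed set, Rpl11 holds the ETS string, Mrpl9 the NRF1 core, and Slc25a39, Ssb and Prss23 the GC box, while Zscan26 and Cav1 hold none of the 8.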

How the data were processed

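H3K79me2 was measured by ChIP-seq, and the files used are the 2 peak lists the authors deposited, 1 per condition, each with 9 columns and no header. The deposited score is an integer per peak; the fold enrichment (a ratio over background) and the −log10 p-value and −log10 q-value per peak come from the authors as well and served only for description, ranking and filters. The mm10 build, Trimmomatic, deepTools and bcl2fastq 2.20.0.422 are named per the submitters' processing notes. Not given in the sources used here are the aligner, the peak caller, the use of the inputs and any pooling of replicates. Columns of per-sample values left unmapped numbered 0.

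An overlap of 1 bp or more counted as shared, and peaks were assigned to every RefSeq protein-coding span (GRCm38.p6) they touched, with Python 3.11.15, numpy 2.4.6, pandas 2.3.3 and scipy 1.17.1. The interval counts were checked on simulated data. Strand and start come from RefSeq promoter sequences of 300 bases. Starts on chromosome 18 and of some other genes were not used here, which left 229 peaks without a position. The 29 gene lists and the members were chosen with earlier results of these data known. No test between conditions was made. Counts over lists and sets are descriptions.

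Named genes are the 10 peaks of highest fold, the 10 of highest −log10 q, the 10 with the longest EPZ5676 coverage, the 5 widest and 5 narrowest, those nearest each limit of the rule, the 5 longest and 5 shortest genes, up to 5 genes with several peaks, and the 3 of highest fold in each list. Other names were added after their values were seen. Alternatives varied the spacing, the width, the gene overlap, the p and q floors, the overlap with EPZ5676 peaks and the definition of a start.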

Additional observations from a re-analysis of the deposited data

How the results depend on the processing

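With a spacing of 5000 bp the rule gave 1810 peaks, a median control fold of 2.65, 66.5% at a gene start and 67.1% whose gene had no other control peak. With that spacing doubled from 10000 bp it gave 697 peaks, 87.8% without another control peak in the gene. Genes of any gene list with an isolated peak, each counted once, then numbered 118 (206 under the rule as given). At widths of 2000 to 5000 bp there were 719 peaks, with a median width of 3100 bp, a fold of 3.02, 83.8% at a start and 85.3% without another control peak. With the control list at the EPZ5676 p floor there were 2199 peaks, with a median width of 2774 bp, a fold of 2.82, 67.8% at a start and 342 such genes. With a −log10 q of at least 2, the median width was 2548 bp, the fold 2.87, 80.8% lay at a start and 85.8% had no other control peak in the gene. The share with an EPZ5676 peak was 0.50% when at least 50% of the peak had to be covered, 1.33% with EPZ5676 peaks of at least 500 bp and 0.25% with EPZ5676 peaks of a −log10 q of at least 2. The share at a start was 7.21% when the first base had to be covered, 54.5% within 500 bp, and 8.83% when either end of the span had to be covered. The remaining 31 values of these quantities moved by less than their interval or 1.5 times, and of 203 values for single gene lists 151 did so. The comparison of isolated with non-isolated peaks at the p floor was chosen after seeing the data. No paired analysis was possible because each condition has 1 list. The read depth behind the lists is unknown, so a site without an EPZ5676 peak is a site not called, and how much mark it kept was not detectable here.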

Other observations

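Some isolated peaks lay far from every listed start and were still well enriched in the control. They were chosen after their values were seen, by fold among the 159 peaks over 10000 bp from a start. The strongest lay over the neighbours Tsr3, a ribosomal RNA modification enzyme, and Baiap3 (−log10 q 11.1), 13438 bp from a listed start. It covered 90.1% of the shorter of these genes, whose own start was not listed. That distance is therefore to a start of the other gene, and the peak is not far from every start. Adcy10, the soluble adenylyl cyclase, had its only control peak 53502 bp into a gene of 93261 bp (fold 3.87, −log10 q 9.85). A peak over Shc4 and Eid1 had a fold of 3.28 and was 48640 bp from the nearest listed start. It too covered most of the shorter gene (79.6%), whose own start was not listed. One in Chn1, a Rac-regulating protein gene, had 3.07 at 26048 bp, in a gene with 18 control peaks. None of these 4 had EPZ5676 coverage, and only 2.75% of all 1200 isolated peaks did. Starts were listed for 79.6% of genes, so an unlisted start may lie nearer to the other peaks as well.

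Of the 70 isolated peaks that covered a start, 6 covered starts on both strands, 4 of them of protein-coding genes. By chromosome, the 1200 peaks made up between 1.42% (chromosome 18, 25 peaks) and 3.88% (chromosome 7, 111 peaks) of the control peaks. Overlaps with EPZ5676 peaks were found on 6 of the 111 on chromosome 7, 4 of 53 on chromosome 3 and 3 of 47 on chromosome 19. Over all 1200 the share was 2.75%.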
